A study of Mus musculus with 10 samples.

Results

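Nuclear genes of the oxidative phosphorylation system were followed in the hypothalamus of mice with and without a C26 tumour. The members were the genes whose symbols start with Nduf, Uqcr, Atp5 or Cox4 to Cox8, together with Sdha, Sdhb, Sdhc, Sdhd and Cyc1, each read from its brightest probe set paired with exactly 1 gene. This gave 89 genes, found on 121 probe sets, of the 18820 genes that had a probe set of their own. By complex they were 41 genes for complex I, 4 for complex II, 8 for complex III, 19 for complex IV and 17 for complex V. The symbols also bring in genes that are no subunits: the Ndufaf genes are assembly factors of complex I, and Cox7a2l is a supercomplex factor. Ndufa4 and its paralogue Ndufa4l2 were placed with complex IV, to which the NDUFA4 protein belongs. Cox7c, Uqcrc2 and Ndufa13 were found only on probe sets shared with other genes, 3 genes in all, and were not used here.

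Hypothalamus RNA was hybridised to whole-transcript Affymetrix arrays. All animals were male CDF1 mice, a hybrid of BALB/c and DBA/2, aged 10 to 11 weeks. The tumour-bearing group of 5 mice was inoculated with 1000000 cells of the C26 colon adenocarcinoma below the skin of the right inguinal flank in 0.2 ml of Hank's Balanced Salt Solution; C26 is a transplantable tumour line used as a model of cancer cachexia. The control group of 3 mice received a sham injection of the same 0.2 ml without cells, and tissue was taken from every animal on day 20. Each of these 8 mice had its own array, and animals are numbered as in the labels. A pilot set added 1 array of RNA pooled from 4 control animals and 1 of RNA pooled from 5 tumour-bearing animals; the sources used here do not say whether these pools hold RNA of the same mice. Values are log2 levels made by RMA, and a difference is the tumour-bearing mean minus the control mean on that scale. The comparison asks whether respiratory chain transcripts of the hypothalamus differ between mice with a growing tumour and sham-injected mice.

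Oxidative phosphorylation takes place in the inner mitochondrial membrane. Complex I (NADH dehydrogenase) and complex II (succinate dehydrogenase) pass electrons to ubiquinone, complex III (the cytochrome bc1 complex) passes them to cytochrome c, and complex IV (cytochrome c oxidase) passes them to oxygen; complexes I, III and IV pump protons, and complex V (ATP synthase) uses the gradient to make ATP. Most subunits are encoded in the nucleus and imported, while a small set in complexes I, III, IV and V is encoded in mitochondrial DNA. Neurons depend on this system for most of their ATP. The nuclear genes are known targets of the transcription factors NRF1, GABP (an ETS factor), YY1 and ERR alpha, whose activity is raised by the coactivator PGC-1 alpha (Ppargc1a).

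Promoter sequences are shown for the 7 tested members in which every tumour-bearing mouse lay below every control, a pattern described with their values further on. Each line gives the 150 bases before the annotated start, 5′ to 3′ along the gene, from RefSeq on GRCm38.p6; capitals mark the letters searched for NRF1 (GCGCATG), ETS factors (CGGAAG), YY1 (AAGATGG) or ERR (AAGGTCA) on either strand. The windows are chr4:140961121-140961270 (plus strand) for Sdhb, chr4:40279422-40279571 (minus strand) for Ndufb6, chr1:36691337-36691486 (plus strand) for Cox5b, chr9:57521082-57521231 (plus strand) for Cox5a, chr6:126849145-126849294 (minus strand) for Ndufa9, chr2:73911327-73911476 (minus strand) for Atp5g3 and chr6:39592415-39592564 (plus strand) for Ndufb2.
Sdhb: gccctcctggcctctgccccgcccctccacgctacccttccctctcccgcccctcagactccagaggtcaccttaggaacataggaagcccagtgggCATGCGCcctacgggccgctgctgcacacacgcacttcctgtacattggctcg
Ndufb6: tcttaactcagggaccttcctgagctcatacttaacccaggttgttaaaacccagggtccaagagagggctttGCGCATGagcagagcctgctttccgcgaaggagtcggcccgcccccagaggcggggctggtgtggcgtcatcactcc
Cox5b: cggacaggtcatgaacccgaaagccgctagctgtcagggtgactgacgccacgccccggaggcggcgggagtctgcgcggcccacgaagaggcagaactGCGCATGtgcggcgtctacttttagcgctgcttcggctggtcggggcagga
Cox5a: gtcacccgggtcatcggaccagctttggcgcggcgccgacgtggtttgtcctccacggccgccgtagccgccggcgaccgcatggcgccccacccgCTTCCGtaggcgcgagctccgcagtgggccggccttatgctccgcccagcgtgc
Ndufa9: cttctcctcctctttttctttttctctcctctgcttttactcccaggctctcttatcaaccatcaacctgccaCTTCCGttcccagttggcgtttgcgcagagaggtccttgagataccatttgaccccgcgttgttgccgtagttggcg
Atp5g3: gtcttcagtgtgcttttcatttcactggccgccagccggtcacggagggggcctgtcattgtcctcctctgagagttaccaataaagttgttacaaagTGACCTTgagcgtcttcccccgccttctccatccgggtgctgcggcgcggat
Ndufb2: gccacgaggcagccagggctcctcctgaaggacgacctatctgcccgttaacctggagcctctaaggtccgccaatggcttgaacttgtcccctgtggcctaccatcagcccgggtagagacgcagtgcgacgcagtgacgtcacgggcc
The first 3 of these windows hold the NRF1 letters, at position -53 in Sdhb, -77 in Ndufb6 and -51 in Cox5b relative to the start. The ETS letters lie at -54 in Cox5a and -77 in Ndufa9, and the ERR letters at -52 in Atp5g3. In Ndufb2 none of these letters lies in the stretch shown, and the ERR letters begin farther upstream, at -181. Other matches not wholly inside the stretches shown were found between 250 bases before and 50 after the start. The ETS letters begin at 8 in Sdhb, -232 in Ndufb6, 3 and 39 in Cox5b and -2 in Ndufa9. The YY1 letters begin at 30 in Ndufa9.

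A promoter of 300 bases, from 250 before to 50 after the start, was matched for 73 of the 89 members, and motif letters were counted on both strands. The NRF1 letters were present in 15 members (20.5%), against 7.49% of the 10316 tested genes with a promoter and 4.41% of all 27025 genes. The ETS letters were present in 33 members (45.2%), against 32.0% of tested genes and 18.8% of all genes. For YY1 the count was 10 members (13.7%, against 7.93% of tested genes), and for ERR it was 8 members (11.0%, against 3.88%). The GC box of SP1 (GGGCGG) was present in 33 members (45.2%), a smaller share than the 67.9% of tested genes, and the TATA letters (TATAAA) in 8 members (11.0%, against 9.06%). Members with several annotated starts, 5 in all, were counted once if any of their windows held the letters, the tested genes include the members, and no searched string contains another. A match describes letters in a window and is not a binding site. The 15 members with the NRF1 letters had a median difference of -0.063, with 13 lower in value in tumour-bearing mice, and the 56 tested members without them had a median of -0.036, with 43 lower. For the ETS letters the medians were -0.067 with and -0.031 without, for YY1 -0.058 and -0.039, and for ERR -0.053 and -0.043. For the GC box the order was the opposite, -0.027 with and -0.067 without, as for the TATA letters, -0.0045 with and -0.046 without. The differences between these medians were not tested.

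No member passed the test. Of the 89 genes, 86 were above the filter (a linear value over 20 on 3 or more of the 8 single-mouse arrays), and limma called 0 of them higher and 0 lower after p-values were adjusted by Benjamini-Hochberg over the 22837 probe sets tested (threshold 0.05). Over all tested probe sets, 13 were called higher (0.0569%) and 0 lower (0%). The adjusted p of the members ran from 0.261 for Ndufb6 to 0.994 for Ndufaf7. Without adjustment, 10 members were lower in tumour-bearing mice at p under 0.05 and 1 was higher; these are 11.6% and 1.16% of the tested members, against 6.51% lower and 3.78% higher over the 12978 tested genes.

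In value, most members were slightly lower in the tumour-bearing mice. The fitted difference was below 0 in 69 of 86 members (80.2%), against 54.5% of all tested genes, with a median of -0.052 against -0.010 over all tested genes. In 9 of the 23 members with several tested probe sets, these differed in sign; with the probe sets of a gene averaged, 67 members were lower. The middle 50 percent of the members lay between -0.091 and -0.012. The differences were small: 68 members (79.1%) differed by less than 0.1 in either direction, against 67.8% of all genes, and 3 members (3.49%) by more than 0.2, against 9.89%. As folds, members ran from 0.846 for Atp5k to 1.35 for Cox6a2, with a median of 0.964. A miss of the threshold does not show that the groups are equal, but the intervals bound the size: the 95% interval lay within 1.2-fold in either direction for 69 of the 86 members, and the median distance from the estimate to the end of its interval was 0.12. Over all tested genes the interval lay within that bound for 7164 of 12978, and the median distance was 0.17.

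**Figure D1:**
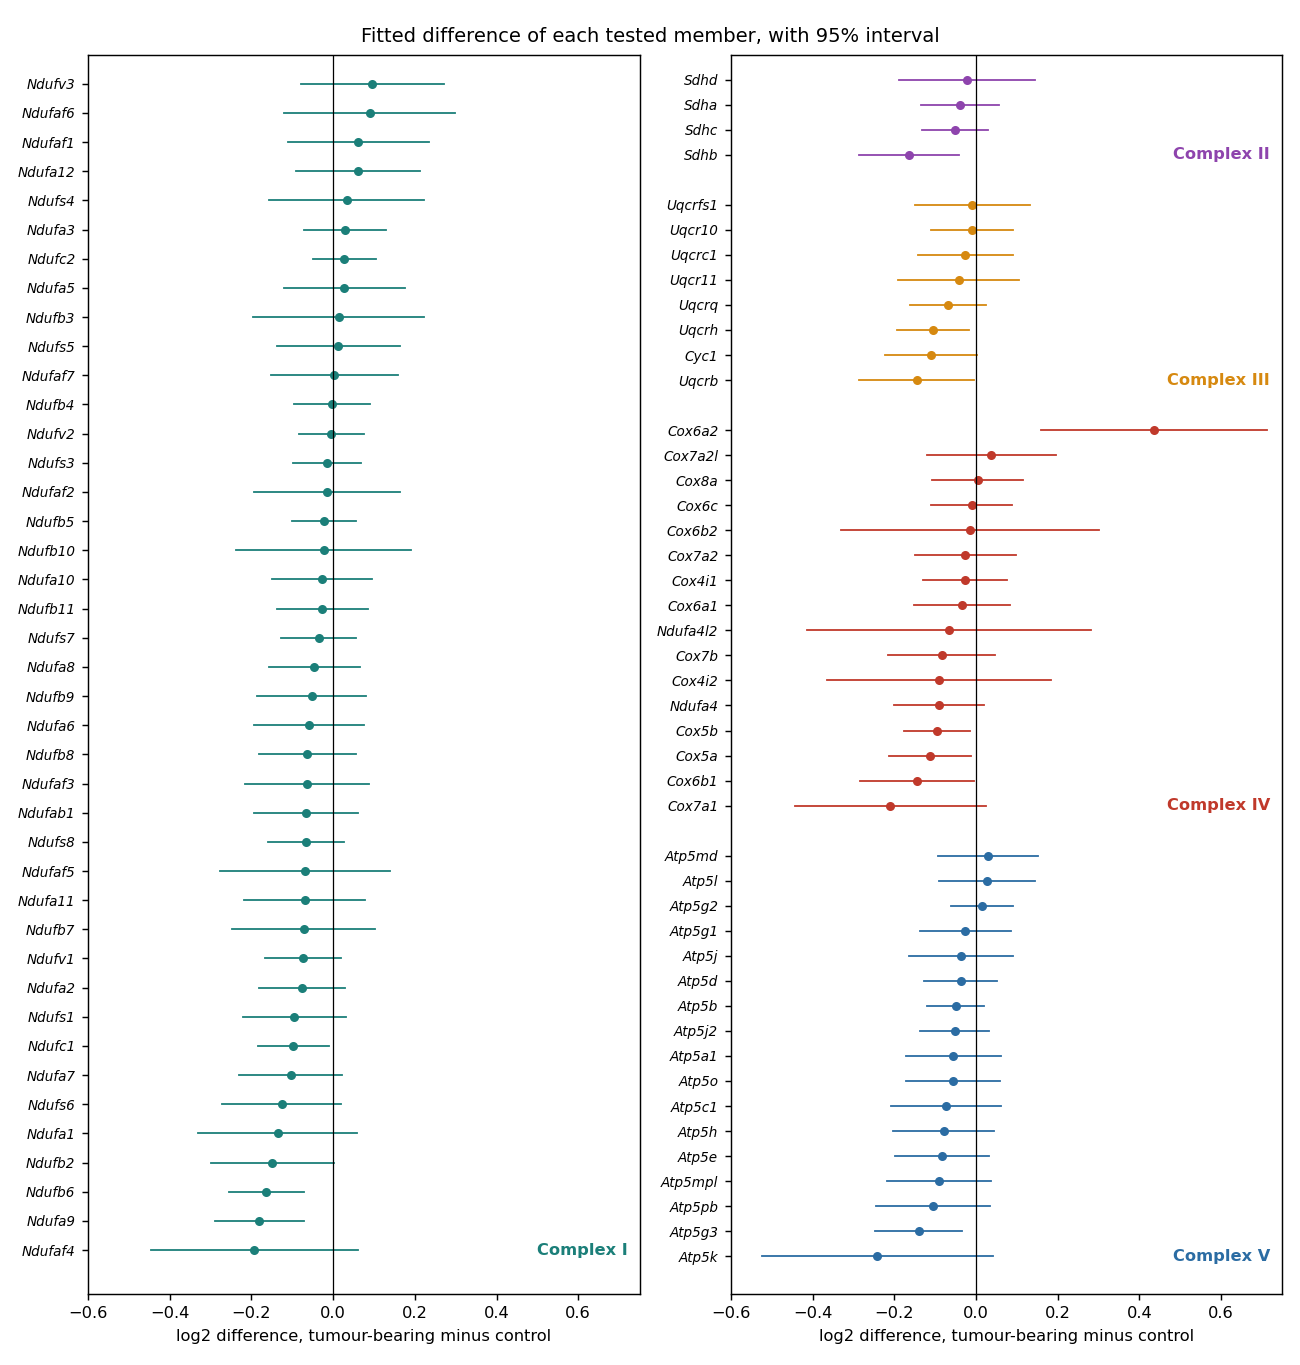
Fitted log2 difference (tumour-bearing minus control, 5 against 3 mice) of each of the 86 tested members, grouped by complex, with the 95% interval of the limma fit as a horizontal line. Most points lie just left of 0, 69 of 86 in all, and Cox6a2 lies alone to the right at 0.44.

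The members did not stand at one level within a group. After each gene was centred on its own mean over the 8 arrays, the median over the tested members was -0.018 in control 1, 0.074 in control 2 and 0.037 in control 3. In tumour-bearing mice 1 to 5 it was -0.031, 0.0061, -0.018, -0.029 and -0.019. Control 1 lay among the tumour-bearing mice, so the groups overlapped. Control 2 had the highest value of all 8 arrays in 34 of 86 members (39.5%), although it was highest in 12.2% of all tested genes. The gap between the groups leaned on that animal: the members' median difference was -0.030 without control 2, with 62 members lower and 3 lower at unadjusted p under 0.05, and -0.079 without control 1. Tumour-bearing mouse 4 was highest in 0 members, against 5.65% of all tested genes, and mouse 1 lowest in 23 (26.7%), against 14.2%; without mouse 4 the count at unadjusted p under 0.05 was 5.

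Marker lists of other cell types and tissues differed between the same arrays, although limma called none of their genes. All 10 measured markers of midbrain dopamine and serotonin neurons, which lie in nuclei behind the hypothalamus, were lower in value in tumour-bearing mice; their mean log2 level was 6.56, 7.26 and 7.09 in controls 1 to 3 and 5.65 to 6.66 in tumour-bearing mice. The highest of these values was again that of control 2 and the second that of control 3. Among the controls the serotonin neuron genes Slc6a4 and Tph2 varied most. Slc6a4 read 3.78, 6.45 and 5.93 in controls 1 to 3, and Tph2 read 3.19, 5.99 and 5.13. Their SDs over the controls were 1.41 and 1.44, and the next largest in this list, that of En1, was 0.27. Tph2 and Pitx3 were below the filter but count in the marker mean. With the midbrain marker mean as a covariate, the members' median difference was 0.0014, 42 of 86 members were lower in value and 2 were lower at unadjusted p under 0.05. This marker mean itself went with the group, so the fit cannot tell group and marker level apart. All 10 measured markers of mature oligodendrocytes were lower too, at 8.60 to 8.66 in controls and 7.79 to 8.53 in tumour-bearing mice. Markers common to neurons overlapped, at 10.87 to 10.97 in controls and 10.89 to 10.95 in tumour-bearing mice. Pituitary markers were at 6.19 and 6.14 in tumour-bearing mice 3 and 4 and at 4.03 to 4.55 in the other 6 animals; without those 2 mice the members' median was -0.045, with 5 lower at unadjusted p under 0.05. Markers of the hypothalamus itself were higher in value in tumour-bearing mice for 10 of 11, with a mean level of 7.88 to 7.98 in controls and 8.00 to 8.37 in tumour-bearing mice, which did not overlap. The erythrocyte marker Alas2 was higher in value, at 4.59 to 5.21 in controls and 5.62 to 7.77 in tumour-bearing mice, also without overlap. Microglia markers were lower in value for 7 of 8, at 6.32 to 6.39 and 6.05 to 6.38, and astrocyte markers for 5 of 8, at 9.49 to 9.53 and 9.33 to 9.49; both lists overlapped between the groups. Lists for endothelium, choroid plexus, striatum, and cortex and hippocampus had genes in both directions and overlapped in level. The part of these lists in the members' values was not tested. In whole tissue, fewer cells of a type and less RNA per cell cannot be told apart.

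**Figure D2:**
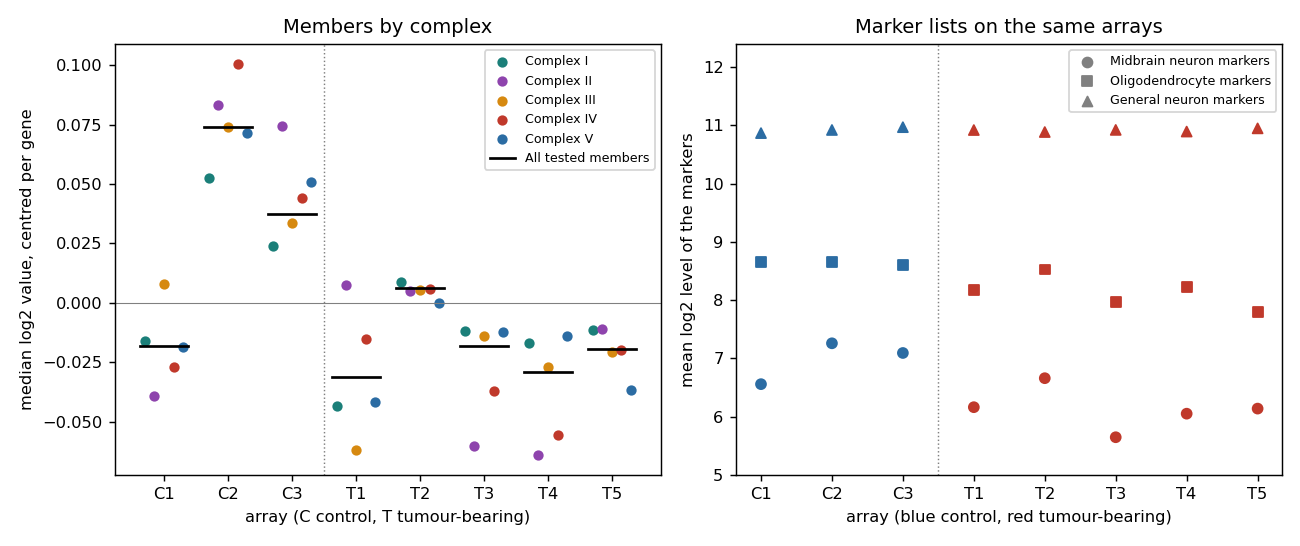
Left, median log2 value of the tested members of each complex (coloured points) and of all 86 (black bar) in each individual array, each gene centred on its mean over 8 arrays; right, mean log2 level of 3 marker lists on the same arrays. Controls 2 and 3 are highest in the left plot and have the highest midbrain marker levels in the right plot.

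Complex I had 30 of its 41 members lower in value and 11 higher, with a median difference of -0.046. Of its core subunits, which carry the flavin and the iron-sulphur clusters, 6 were measured and all 6 were lower in value (median -0.051), from -0.0041 for Ndufv2, which holds an iron-sulphur cluster beside the flavin, to -0.095 for Ndufs1, the largest subunit. Ndufs1 read 8.65, 8.51 and 8.53 in the controls and 8.56, 8.50, 8.47, 8.35 and 8.45 in tumour-bearing mice, so its groups overlapped. Among the 28 accessory subunits, which surround the core, 20 were lower and 8 higher, with a median of -0.049. The 7 assembly factors were split, 4 lower and 3 higher, with a median of -0.015.

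The lowest adjusted p of all members was that of Ndufb6, an accessory subunit of the membrane arm. Its log2 level was 9.99, 10.00 and 9.95 in controls 1 to 3 and 9.88, 9.88, 9.80, 9.76 and 9.77 in tumour-bearing mice 1 to 5. Every tumour-bearing mouse lay below every control. The difference was -0.16 ± 0.041 (SE), a fold of 0.893, with a limma adjusted p of 0.261. Ndufa9, an accessory subunit at the junction of the peripheral and membrane arms, read 8.76, 8.78 and 8.76 in controls, which lay within 0.02 of each other, and 8.67, 8.56, 8.52, 8.68 and 8.52 in tumour-bearing mice. The groups did not overlap here either, with a difference of -0.18 ± 0.049 (limma adjusted p 0.277). Ndufb2, another membrane arm subunit, read 6.45, 6.46 and 6.30 in controls and 6.28, 6.21, 6.30, 6.20 and 6.28 in tumour-bearing mice. Every tumour-bearing mouse lay below every control, although control 3 and tumour-bearing mouse 3 were equal to 2 decimals. The difference was -0.15 ± 0.067 (limma adjusted p 0.479). Ndufc1, also of the membrane arm, differed by -0.097 ± 0.039 (limma adjusted p 0.420), with an overlap between control 3 and tumour-bearing mouse 3.

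The most negative difference of complex I was that of the assembly factor Ndufaf4, at -0.19 ± 0.11 (limma adjusted p 0.598), with controls of 7.22, 6.93 and 6.72 and tumour-bearing mice from 6.58 to 6.90. Control 1 set it apart, and without that animal the difference was -0.059. On the positive side stood Ndufv3, an accessory subunit of the NADH-binding module, at 0.096 ± 0.078, followed by the assembly factors Ndufaf6 at 0.089 ± 0.093 and Ndufaf1 at 0.062 ± 0.077 and the accessory subunit Ndufa12 at 0.061 ± 0.067. All of these intervals included 0.

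Complex II had its 4 subunits lower in value, with a median difference of -0.046. Sdhb, the iron-sulphur subunit, read 8.88, 8.98 and 9.06 in controls and 8.88, 8.88, 8.78, 8.72 and 8.80 in tumour-bearing mice. The groups touched: control 1 exceeded the highest tumour-bearing mouse only beyond the second decimal. The difference was -0.16 ± 0.054, a fold of 0.892, with a limma adjusted p of 0.356. Sdha, the flavoprotein that oxidises succinate, read 10.38, 10.54 and 10.54 in controls and 10.43 to 10.47 in tumour-bearing mice, a difference of -0.039 ± 0.043. Sdhc and Sdhd, the membrane anchors, differed by -0.052 ± 0.036 and -0.022 ± 0.074. The groups of Sdha, Sdhc and Sdhd overlapped, and Sdhd took the opposite sign without control 2 or without tumour-bearing mouse 3. Sdhd also turned without both mice with pituitary transcripts. With the midbrain covariate Sdha was at 0.052 and Sdhd at 0.19, while Sdhb was at -0.046 and Sdhc at -0.080.

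Complex III had all 8 members lower in value, with a median of -0.055. Uqcrh, the hinge protein next to cytochrome c1, read 10.06, 10.16 and 10.05 in controls and 9.96, 10.06, 9.97, 9.97 and 9.98 in tumour-bearing mice, a difference of -0.11 ± 0.039 (limma adjusted p 0.398). Only tumour-bearing mouse 2 reached the controls. A second probe set of Uqcrh, dim and near the filter, had the opposite sign, at 0.23 ± 0.22. Uqcrb, a small subunit near the ubiquinone site, differed by -0.15 ± 0.062 (limma adjusted p 0.457), and control 1, at 10.67, lay well above the rest, which ran from 10.30 to 10.53. Cyc1, the haem-bearing cytochrome c1, read 9.31, 9.41 and 9.51 in controls and 9.25, 9.35, 9.27, 9.30 and 9.34 in tumour-bearing mice, a difference of -0.11 ± 0.050 (limma adjusted p 0.479) with overlap. Uqcrfs1, the Rieske iron-sulphur protein, and Uqcr10 were closest to 0, at -0.0093 ± 0.063 and -0.010 ± 0.044, and their signs turned under several settings.

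Complex V had 14 of 17 members lower in value, with a median of -0.055. All 5 members of the F1 part, the catalytic head with its central stalk, were lower (median -0.055), from -0.038 for Atp5d to -0.084 for Atp5e. Atp5b, the catalytic beta subunit, read 11.57, 11.67 and 11.62 in controls and 11.58, 11.55, 11.55, 11.58 and 11.58 in tumour-bearing mice. Its difference was -0.050 ± 0.031 (limma adjusted p 0.611), and only control 1 lay among the tumour-bearing mice. The 4 members of the peripheral stalk were all lower (median -0.068), and of the 5 members of the membrane part 3 were lower and 2 higher.

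The c subunits, which form the rotating ring, are made from 3 genes that encode the same mature protein with different import signals. Atp5g3 read 9.88, 10.07 and 9.95 in controls and 9.84, 9.75, 9.88, 9.81 and 9.85 in tumour-bearing mice. Every tumour-bearing mouse lay below every control, by a narrow margin at control 1. The difference was -0.14 ± 0.047 (limma adjusted p 0.359). Atp5g1 and Atp5g2 differed by -0.026 ± 0.050 and 0.014 ± 0.034, with overlap and with signs that turned under some settings; whether the 3 genes differ from each other was not tested. Atp5k, subunit e of the membrane part, had the most negative difference of all members, -0.24 ± 0.13 (limma adjusted p 0.542), with controls of 6.36, 6.53 and 6.17 and tumour-bearing mice of 5.89, 6.15, 6.07, 6.05 and 6.42. Tumour-bearing mouse 5 lay above 2 of the controls.

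Complex IV had 13 of its 16 tested members lower in value and 3 higher, with a median of -0.050. Cox5a, a subunit on the matrix side, read 7.65, 7.72 and 7.68 in controls and 7.56, 7.54, 7.53, 7.57 and 7.63 in tumour-bearing mice. The groups did not overlap, and the difference was -0.11 ± 0.045 (limma adjusted p 0.416). Cox5b, the zinc-binding subunit on the same side, read 10.19, 10.28 and 10.18 in controls and 10.14, 10.15, 10.08, 10.08 and 10.16 in tumour-bearing mice, a difference of -0.096 ± 0.036 (limma adjusted p 0.411), again without overlap. Its second probe set gave -0.075 ± 0.035. Cox6b1, which joins the monomers of the enzyme, differed by -0.14 ± 0.062 (limma adjusted p 0.457), with control 2 highest at 10.10. The supercomplex factor Cox7a2l had 2 probe sets that disagreed, at 0.038 for the brighter and -0.26 for the other, so its direction depends on the probe set; it counts here among the 3 higher by its brighter one.

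Tested members whose groups did not overlap numbered 8. In 7 of them (8.14%) all tumour-bearing mice lay below all controls, a pattern shown by 5.19% of all tested genes. They were Sdhb, Ndufa9, Ndufb6, Ndufb2, Atp5g3, Cox5a and Cox5b. In 1 member, Cox6a2 (1.16% of the members), the order was the opposite, against 3.11% of all tested genes. Over the alternatives run, the difference ranged from -0.19 to -0.11 for Ndufb6, from -0.20 to -0.16 for Ndufa9, from -0.21 to -0.12 for Ndufb2, from -0.18 to -0.090 for Atp5g3, from -0.14 to -0.086 for Cox5a, from -0.21 to -0.046 for Sdhb, from -0.12 to -0.030 for Cox5b and from 0.34 to 0.53 for Cox6a2. The values nearest 0 of Sdhb, Cox5b, Cox5a and Ndufb6 came with the midbrain covariate. Those of Atp5g3 and Ndufb2 came without control 2, that of Ndufa9 without tumour-bearing mouse 5, and that of Cox6a2 with the pools as samples. For Ndufb2 the value farthest from 0 came with the midbrain covariate. Cyc1, whose groups overlapped, was at -0.0068 with that covariate.

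**Figure D3:**
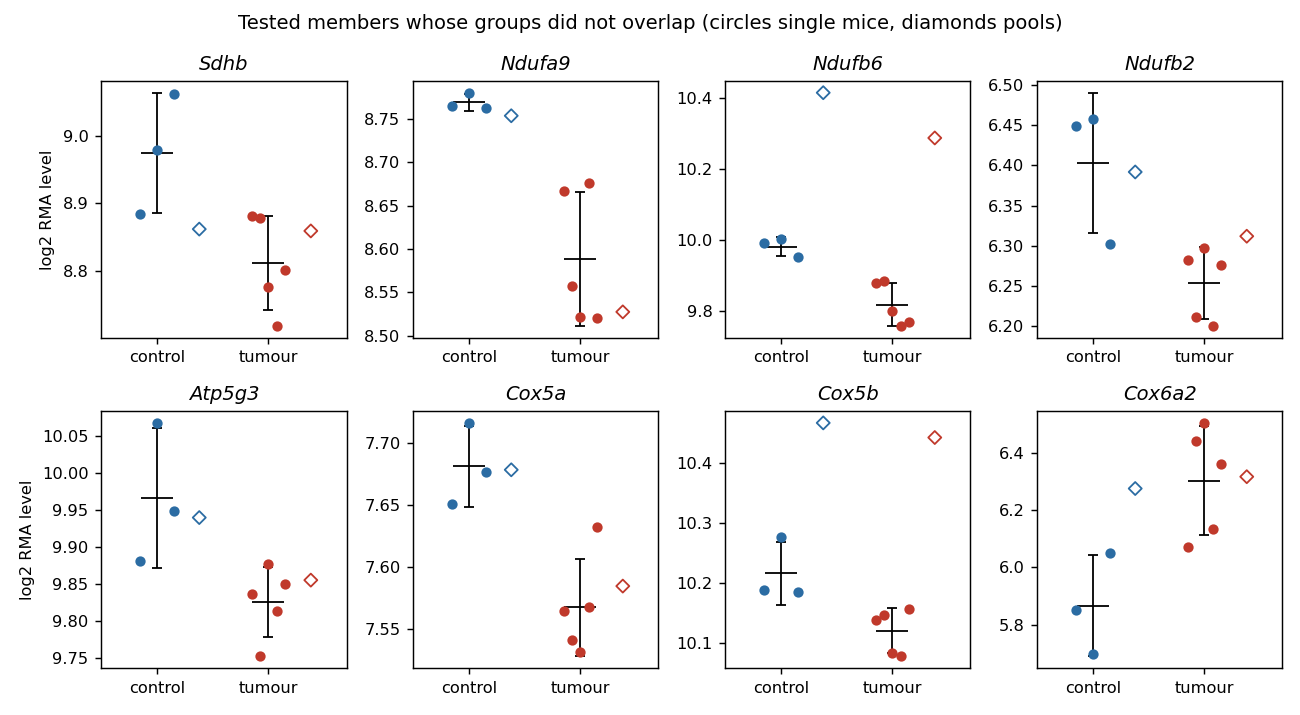
Log2 level of the 8 tested members whose groups did not overlap, in 3 control (blue) and 5 tumour-bearing mice (red); bars give the mean and SD, and open diamonds the pooled arrays. Each vertical axis has its own range, and the pools of Ndufb6 and Cox5b lie above all single mice.

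Cox6a2, the isoform of subunit 6a known from heart and skeletal muscle, had the most positive difference of all members. It read 5.85, 5.70 and 6.05 in controls and 6.07, 6.44, 6.50, 6.13 and 6.36 in tumour-bearing mice. No tumour-bearing mouse was as low as any control, with tumour-bearing mouse 1 close to control 3. The difference was 0.44 ± 0.12, a fold of 1.35, with a limma adjusted p of 0.294, and its sign was the same under every setting tried. In the pools the level was 6.27 in controls and 6.32 in tumour-bearing mice. Its widely expressed counterpart Cox6a1 differed by -0.034 ± 0.052 with overlap. Muscle markers overlapped between the groups in single mice: the mean of the 6 listed muscle and brown fat markers was 4.15 to 4.21 in controls and 4.13 to 4.24 in tumour-bearing mice, with Ckm at 4.26 to 4.42 and 4.17 to 4.39, around the filter level of 4.32.

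The other muscle isoforms were lower in value. Cox7a1, the muscle form of subunit 7a, read 5.72, 5.64 and 5.40 in controls and 5.30, 5.55, 5.37, 5.33 and 5.34 in tumour-bearing mice, a difference of -0.21 ± 0.10 (limma adjusted p 0.521) with overlap through tumour-bearing mouse 2. Cox7a2, the widely expressed form, differed by -0.027 ± 0.055. Cox8b, the muscle form of subunit 8, was not tested because it exceeded the filter level in control 3 alone; it read 4.17, 4.09 and 4.47 in controls and 3.92 to 3.99 in tumour-bearing mice, without overlap, and its widely expressed counterpart Cox8a differed by 0.0043 ± 0.050. Cox8c and Cox7b2, known from testis, were also below the filter, with highest single arrays of 4.10 and 3.20. Cox4i1 and its oxygen-responsive isoform Cox4i2 differed by -0.027 ± 0.045 and -0.090 ± 0.12. Cox6b2, a testis isoform, differed by -0.015 ± 0.14. Ndufa4 and Ndufa4l2 differed by -0.091 ± 0.049 and -0.066 ± 0.15, all with overlap.

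**Figure D4:**
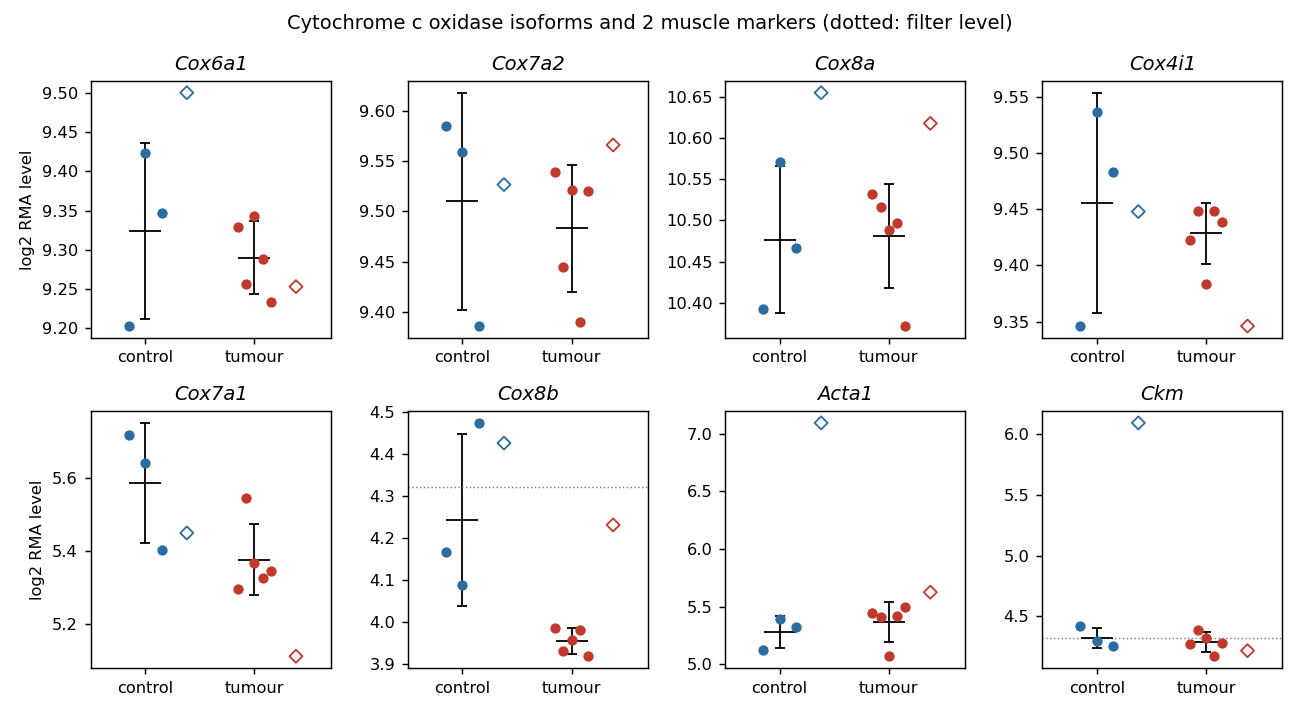
Log2 level of 6 complex IV isoform genes and of the muscle markers Acta1 and Ckm in single mice (circles, with mean and SD) and pools (diamonds); the dotted line is the filter level of 4.32 where it falls in range. The control pool stands far above all other arrays for Acta1 and Ckm, while single mice of both groups overlap for them.

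The pooled arrays, each a single value without replicates, are given beside the single mice. Pooled tumour-bearing RNA was lower than pooled control RNA in 61 of the 86 tested members and higher in 25. Of all 12978 tested genes, 6842 were lower and 6133 higher. The members' median pool difference was -0.069 against -0.0092 over all tested genes. By complex the pool medians were -0.065 for complex I, -0.032 for II, -0.021 for III, -0.098 for IV and -0.086 for V. For Ndufa9 the pools read 8.75 in controls and 8.53 in tumour-bearing mice, and for Ndufb6 10.42 and 10.29. For Sdhb the pools were level, at 8.86 and 8.86. The pools stood apart from the single mice as a set: both lay above all 8 individual arrays in 20 of 86 members (23.3%, against 13% of all tested genes) and below all 8 in 14 (16.3%, against 11.8%), so levels were compared only within each set. The control pool also carried muscle transcripts, with Acta1 at 7.10 against 5.63 in the tumour-bearing pool, Ckm at 6.09 against 4.22, Tnnt3 at 6.24 against 4.33 and Myh4 at 5.37 against 3.32. The tumour-bearing pool carried pituitary transcripts, with Gh at 9.82 against 4.37 in the control pool and Prl at 6.83 against 2.98. Its marker means were lower for midbrain neurons (6.48 against 6.78) and oligodendrocytes (8.28 against 8.60). They were higher for striatum (7.38 against 6.81) and hypothalamus (8.30 against 8.07). The part of these transcripts in the pools' member values was not tested. For the muscle isoforms the pools read 5.45 in controls and 5.11 in tumour-bearing mice for Cox7a1, and 4.43 and 4.23 for Cox8b; the part of the muscle transcripts in these values was not tested.

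Within groups, members varied little and partly together. After group means were removed, the median SD of a member over animals was 0.076, against 0.099 over all tested genes. The correlation of each member with the mean of the other members over the 8 arrays had a median of 0.38, with 60 of 86 members above 0 and 33 above 0.5. The members most like the rest were Ndufs8 (r = 0.90), a core subunit of complex I, Uqcrh (0.88), Ndufa8 (0.87), Ndufaf1 (0.86) and Atp5d (0.85). The members least like the rest were Cox4i2 (-0.85), whose level is near the filter, Ndufaf7 (-0.74), Atp5md (-0.56) and Ndufa5 (-0.53). Over all 3655 pairs of members the median correlation was 0.097. These values rest on 8 arrays that share one normalization and are a description. No such correlation was computed for other sets of genes, and the SDs were not matched for expression level.

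Related mitochondrial genes gave no calls by limma either. At unadjusted p under 0.05 the lower genes were 1 of 36 assembly factors and 3 of 14 in the carrier list (Slc25a3, Slc25a5 and Gpd2). Lower too were 3 of 19 citrate cycle genes, 2 of 14 glycolysis genes and 3 of 74 mitochondrial ribosomal proteins. The only higher gene was 1 of 12 for coenzyme Q. Over all tested genes, 6.51% were lower and 3.78% higher at that threshold. Of 36 assembly factors outside the symbol rule, 23 were lower in value and 13 higher, with a median of -0.022; the difference farthest from 0 was -0.16 ± 0.13 for Sco1, a copper chaperone of complex IV. A mixed list of cytochrome c, inner membrane carriers, outer membrane Vdac channels, electron transfer enzymes and related proteins had 12 of 14 lower (median -0.072), led by Etfa, an electron transfer flavoprotein subunit, at -0.17 ± 0.10. Citrate cycle and pyruvate dehydrogenase genes had 15 of 19 lower (median -0.064), while the inhibitory kinase Pdk4 differed most, at 0.28 ± 0.17. Coenzyme Q synthesis genes had 5 of 12 lower (median 0.019), with Coq8b at 0.18 ± 0.066. Glycolysis genes had 11 of 14 lower (median -0.020), with Pgk1 at -0.12 ± 0.044. Mitochondrial ribosomal proteins had 44 of 74 lower (median -0.017), with Mrpl46 at -0.25 ± 0.073. Of 3 uncoupling proteins tested 1 was lower, and the difference farthest from 0 was 0.029 for Slc25a14.

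Known regulators of these genes were measured as well, and limma called none of the 17, with 2 lower at unadjusted p under 0.05. Over all tested genes, 6.51% were lower at that threshold. The median of the regulators was -0.044, with 11 lower in value. Ppargc1a read 9.19, 9.22 and 9.16 in controls and 9.06, 9.13, 9.08, 8.99 and 9.17 in tumour-bearing mice, a difference of -0.10 ± 0.045 with overlap through tumour-bearing mouse 5. These values are of the brighter of its 2 probe sets. With both averaged the difference was -0.14, and with the pools as samples it was -0.055 for the brighter probe set. Nrf1 differed by -0.044 ± 0.060 and Gabpa by -0.0011 ± 0.060. Esrra differed by -0.063 ± 0.10, with the opposite sign without control 2, and Tfam, the packaging factor of mitochondrial DNA, by -0.11 ± 0.10. Esrrg, an ERR family receptor, had the difference farthest from 0, at -0.54 ± 0.19, with controls of 6.54, 7.02 and 7.34 and tumour-bearing mice of 6.70, 6.65, 6.07, 6.29 and 6.39. With the midbrain marker mean as a covariate, which itself went with the group, its difference was 0.041.

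**Figure D5:**
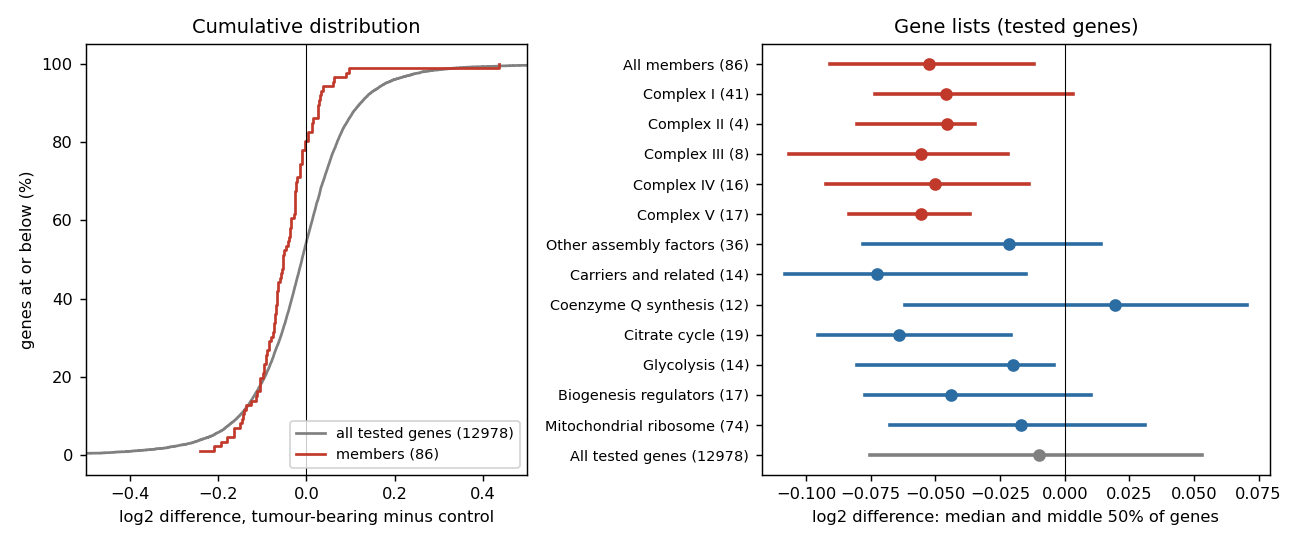
Left, cumulative share of genes at or below each log2 difference for the 86 tested members (red) and all 12978 tested genes (grey), with the horizontal axis limited to 0.5 either way; right, median (point) and middle 50 percent (line) of the difference for each complex and related list. The members' curve is steeper and lies to the left of the curve for all genes over most of its height, and the medians of all 5 complexes lie between -0.055 and -0.046.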

How the data were processed

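Values were the deposited log2 expression values of 10 arrays; per the submitters' processing notes the authors used RMA, and the version, the probe set definition and whether all arrays were processed together are not given in the sources used here. The log2 scale was inferred from the values' range. RMA brings the arrays to nearly the same distribution, which hides any shift common to all transcripts, and it shrinks folds. Array medians of the 8 single mice were 5.30 to 5.32. Precision is limited by the number of arrays.

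A platform annotation paired 21218 of 35556 probe sets with 1 gene, 1881 with several and 12457 with none; updating symbols to RefSeq changed 0 of them. Of the members, 23 had several such probe sets, and near-identical gene copies could share signal. Probe sets above 20 (log2 4.32) on at least 3 of the 8 individual arrays, 22837 in all, were tested with limma 3.58.1 in R 4.3.3 (eBayes with trend; Benjamini-Hochberg adjustment, threshold 0.05). Pools entered no main test. Standard errors and 95% intervals are those of this fit. The test was checked on simulated data with independent noise, where recovery was required only for shifts larger than any member's difference. Recovery of shifts as small as the members' is not reported here.

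The members and lists were chosen with earlier results of these data known. The text names any called member, the 4 Sdh genes and Cyc1, the members at both ends of complexes I, III, IV and V (4 each way, 2 for complex III), the isoform pairs, 5 regulators and the member farthest from 0 of each other list; genes named beyond these (Ndufc1, Ndufs1, Ndufv2, Uqcrh, Atp5b, Atp5d, Atp5e, Slc25a3, Slc25a5, Gpd2 and those given for their correlation) were chosen after their values were seen. Mitochondrial genome transcripts were not analysed here. Alternatives changed the filter, variance model, array weights, normalization, probe sets, replicate block, pools and covariate, or left out animals. Replicate numbers shared between groups name different animals, and deviations of same-numbered animals correlated at -0.0020 to 0.0089. Plots used matplotlib 3.10.9 (Python 3.11.15).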

Additional observations from a re-analysis of the deposited data

Results flagged for a closer look

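In 4 of the 56 named genes examined, 1 of the 5 tumour-bearing mice stood far from the other 4; chance alone picks out about 1 in 20 such groups. Cox7a1, the muscle isoform of a complex IV subunit, read 5.55 in tumour-bearing mouse 2, and the nearest other mouse read 5.37. Cox8a read 10.37 in tumour-bearing mouse 5, below the nearest at 10.49. Atp5pb, of the peripheral stalk of complex V, read 9.19 in the same mouse, below the nearest at 9.38. Coq8b, of coenzyme Q synthesis, read 7.13 in tumour-bearing mouse 3, above the nearest at 7.04.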

How the results depend on the processing

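Members called numbered 0 under every alternative run, with a lowest adjusted p of 0.116 (limma, Ndufb6, with testing limited to probe sets of 1 gene). The members' median difference, -0.052, was 0.0014 with the midbrain markers as a covariate; it ran from -0.079 to -0.030 when 1 animal was left out, was -0.048 with the replicate block, and kept its sign under every other alternative. The count of members lower at unadjusted p under 0.05, 10, was 17 with array weights and 3 with the block. Over all probe sets, 13 called higher and 0 lower became 5 higher without a filter, 4 higher without the trend, 20 higher and 4 lower with array weights, 39 higher and 33 lower with only probe sets of 1 gene, 1 lower with the pools as samples, and 0 higher with the replicate block, with the midbrain covariate or without both mice with pituitary transcripts; leaving out 1 animal gave 0 to 32 higher and 0 to 34 lower. The cause was not tested.

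Of 53 named genes, 29 kept their sign under every alternative, and the others, apart from Esrrg, differed by less than 0.1 in either direction. They include Ndufa4 and Atp5mpl, both at -0.091, and Cox7b at -0.084, which lie farther from 0 than the members' median of -0.052. Signs turned as follows. With array weights: Cox8a -0.026 and Gabpa 0.0045. After quantile normalization: Uqcrfs1 0.0051, Cox8a -0.0077 and Gabpa 0.012. With cyclic loess: Gabpa 0.0079. With the replicate block: Atp5g2 -0.0014 and Cox6b2 0.077. With the pools as samples: Ndufa12 -0.0067, Ndufaf1 -0.016, Uqcr10 0.011, Cox8a -0.018 and Atp5md -0.043. Without both mice with pituitary transcripts: Sdhd 0.059, Cox8a -0.0034, Atp5md -0.039, Cox6b2 0.021, Ndufa4l2 0.010 and Esrra 0.013. With the midbrain covariate: Sdha 0.052, Sdhd 0.19, Atp5mpl 0.087, Atp5g1 0.015, Atp5md -0.12, Cox4i1 0.081, Cox6a1 0.0067, Cox6b2 0.31, Cox7b 0.053, Ndufa4 0.0058, Esrra 0.053 and Esrrg 0.041. With all probe sets of a gene averaged: Cox7a2l -0.11. When 1 animal was left out, Sdhd ran from -0.079 to 0.017, Uqcr10 from -0.024 to 0.010, Uqcrfs1 from -0.031 to 0.024, Cox6c from -0.031 to 0.019, Cox8a from -0.038 to 0.051, Atp5g1 from -0.078 to 0.0016, Atp5g2 from -0.0067 to 0.040, Atp5l from -0.0027 to 0.072, Atp5md from -0.00054 to 0.058, Cox4i1 from -0.081 to 0.014, Cox6a1 from -0.095 to 0.015, Cox6b2 from -0.11 to 0.059, Cox7a2 from -0.089 to 0.011, Gabpa from -0.022 to 0.018 and Esrra from -0.14 to 0.030.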
